A study of Mus musculus with 8 samples.

Results

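Psca, Ly6k, Ly6a, Ly6c1, Ly6c2, Ly6e and Ly6d are 7 genes of the Ly6 family, and each has a row among the 15728 genes of the deposited table. They were selected by symbol, with 2 genes known from these libraries to be strongly raised in the knockout (Psca and Ly6k) and 5 family relatives set beside them. The genotype comparison thus entered the choice, and the values of the 7 genes are given as a description, with no p-value. Where a call of the fit over all genes is given for a member, it is part of that description and supports nothing. Lung tissue of 4 wild type mice was set against that of 4 mice that lack all of the nitric oxide synthases (neuronal, inducible, endothelial), labelled triply n/i/eNOSs-/-. All 8 mice are labelled as on the C57BL/6J strain background, 4 weeks of age and unexposed. The labels give neither how the alleles were made nor the sex, the litter or the time of collection. The assay was CAGE (cap analysis of gene expression), which reads the capped 5′ ends of transcripts, so a read marks a transcript start whatever the length of the transcript and levels of different genes can be set side by side. Levels are in CPM, the reads of a gene scaled to a fixed library total, and log2 differences are knockout minus wild type on log2(CPM + 0.5), which understates changes of genes with low values.

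Proteins of the Ly6 family are short and share a fold of finger-like loops held by disulfide bonds. Most are tethered to the outer cell membrane by a glycosylphosphatidylinositol (GPI) anchor and a few are secreted. Several bind nicotinic acetylcholine receptors, others regulate complement, protein or lipid handling at the cell surface, and several serve as surface markers of blood, endothelial and epithelial cells. In mouse lung, Ly6a and Ly6c1 are known from capillary endothelium and Ly6c2 from inflammatory monocytes, and Ly6a, Ly6c and Ly6e are known as interferon-inducible genes.

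The libraries held 15598154 to 18593913 reads in wild type and 13014134 to 15096188 reads in the knockout, so every knockout library was shallower than every wild type library. A count of 3 reads, taken as the floor, corresponded to 0.161 to 0.231 CPM. Nos3, the endothelial synthase gene, was at 18.2 to 22.8 CPM across the wild type lungs and 5.56 to 8.83 CPM in the knockout. Each of the 16 genes listed as markers of lung cells (surfactant, club, ciliated, alveolar type 1, endothelial and macrophage genes) had a row and none was under 1 CPM in every library. Of these 16, 5 rose and 3 fell, with a median log2 difference of 0.04, where 30.9% of all genes tested rose or fell. Their summed level was 166598 to 181706 CPM across the wild type lungs and 132172 to 158960 CPM in the knockout. Most of it was Scgb1a1 (83216 ± 9650 and 89790 ± 11500 CPM) and Sftpc (75406 ± 7581 and 40739 ± 4973 CPM). The log2 difference of Sftpc was -0.89. Its call ended when all libraries were forced to share a distribution (quantile normalization, -0.33).

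Psca, prostate stem cell antigen, is a GPI-anchored protein of stomach, bladder and prostate epithelium. The wild type lungs held it at 0.12, 0, 0 and 0.32 CPM, from 2, 0, 0 and 5 reads. In the knockout lungs it was at 71.1, 28.9, 62.2 and 41.6 CPM, from 1074, 427, 901 and 541 reads. The gene was thus at or near the floor in wild type and no lower than 28.9 CPM in any knockout lung, and the groups lay far apart. In RNA of whole lung, a change in the number of cells of a type and a change in RNA per cell cannot be told apart. Mean levels were 0.11 ± 0.15 and 50.9 ± 19.2 CPM (SD, n = 4 each), and the log2 difference was 6.34 (SE 0.26). Per read sequenced, Psca was 499.9 times as frequent in the knockout (95% exact interval 242 to 1244, which covers counting error only).

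Ly6k is a GPI-anchored protein of male germ cells that is needed for sperm function. It was at 0.84, 1.51, 0.92 and 0.64 CPM across the wild type lungs and at 31.1, 36.8, 66.7 and 36.6 CPM in the knockout. Unlike Psca, it was above the floor in every wild type library, with 10 to 28 reads. The means were 0.98 ± 0.37 and 42.8 ± 16.1 CPM (SD, n = 4 each), a 43.8-fold difference and a log2 difference of 4.84 (SE 0.23). Knockout replicate 3 was the highest, and without it the knockout mean was 34.8 ± 3.21 CPM (n = 3). By size of rise Psca ranked 6 and Ly6k ranked 8 among 14065 genes tested. Both were chosen as strongly raised in these libraries, so the ranks only describe them.

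Both genes were high in the same 4 lungs but not in the same proportion. The ratio of Psca to Ly6k was 2.29 in knockout replicate 1, 0.78 in replicate 2, 0.93 in replicate 3 and 1.14 in replicate 4. Replicate 1 held the most Psca and the least Ly6k of the knockout lungs. The coefficient of variation between knockout lungs was 37.7% for each, but the spreads were unlike. Without replicate 3 the knockout level of Ly6k was 34.8 ± 3.21 CPM. For Psca the SD stayed at 15.2 to 22.3 CPM whichever knockout lung was left out. Among the other members the coefficient of variation was 3.51% for Ly6a, 5.41% for Ly6e, 6.24% for Ly6c1, 24.5% for Ly6c2 and 49.2% for Ly6d.

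**Figure D1:**
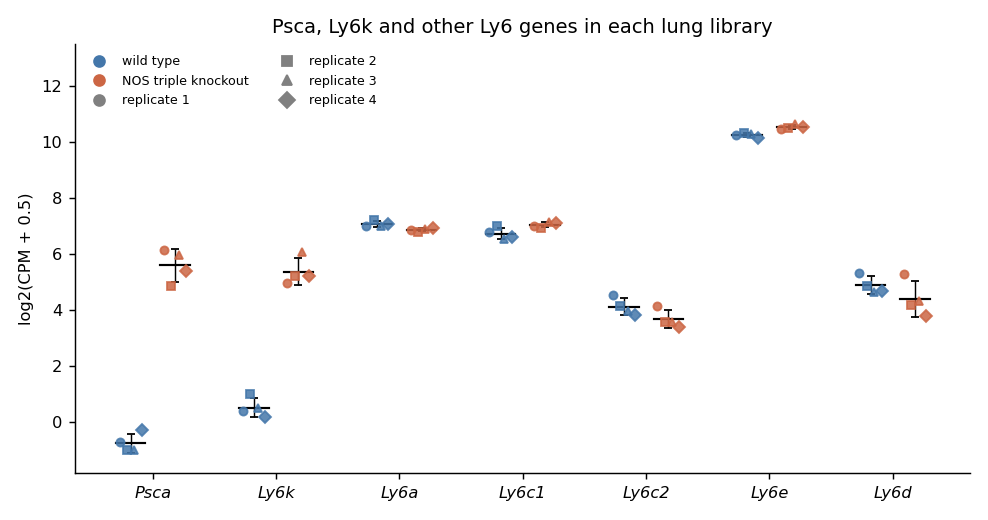
Level of each of the 7 genes in each of the 8 libraries, as log2(CPM + 0.5), in wild type (blue) and knockout (orange); marker shape gives the replicate number, and black lines are the mean with its SD over 4 animals. Psca and Ly6k moved from the lowest levels among the 7 genes to levels of 28.9 to 71.1 CPM. The knockout means of the other members stayed within 1.38-fold of their wild type means, while single libraries of Ly6d and Ly6c2 lay further off.

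All 7 members passed the filter of at least 1 CPM in at least 4 libraries, Psca through its knockout libraries alone. In the fit over all genes (limma, Benjamini-Hochberg adjusted p under 0.05), 4 of the 7 were called higher and 1 lower, where 16.6% and 14.3% of all genes tested were called (30.9% in all). The knockout range lay above the wild type range for 3 members (16.8% of genes tested) and below it for 1 (14.3%), 31.2% of genes being free of overlap in either direction. Because the comparison entered the choice of the genes, nothing is read from these counts. A mean more than 10 times higher in the knockout was found for 0.156% of genes tested and a mean changed more than 2-fold either way for 3.47%, and Psca and Ly6k are the members past each.

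Ly6e, a GPI-anchored protein known for restricting coronavirus entry, was the most abundant member. It was at 1223, 1275, 1245 and 1139 CPM across the wild type lungs and 1425, 1438.5, 1602 and 1481 CPM in the knockout. The knockout values all lay above the wild type values, but by a factor of only 1.22, with means of 1220.3 ± 58.2 and 1487 ± 80.4 CPM (log2 difference 0.28, SE 0.06). Under quantile normalization, which forces all libraries to share a distribution, its difference was 0.18 and its call ended.

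Ly6a (Sca-1), the stem cell antigen of blood progenitors, was lower in the knockout. It was at 127, 148, 128 and 134 CPM across the wild type lungs and 115, 111, 118 and 121 CPM in the knockout, so the groups did not overlap although they lay close together. The means were 134 ± 9.49 and 116 ± 4.08 CPM (log2 difference -0.20, SE 0.06). Ly6c1, which codes for the Ly6C antigen of endothelial cells, leaned the other way. It was at 109, 127, 93.2 and 96.4 CPM across the wild type lungs and 129, 123, 141 and 137 CPM in the knockout, where wild type replicate 2 overlapped the knockout range. The means were 106 ± 15.2 and 133 ± 8.28 CPM (log2 difference 0.33, SE 0.09). Neither call was kept on every omission of 1 library. Ly6a missed the threshold on leaving out replicate 2 or 4 of wild type or replicate 1, 2 or 3 of the knockout, with log2 differences of -0.23 to -0.16 over the 8 omissions. Ly6c1 missed it on leaving out replicate 3 or 4 of wild type or replicate 3 of the knockout, with log2 differences of 0.27 to 0.41.

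Ly6c2, the Ly6C gene of inflammatory monocytes, was at 23.0, 17.5, 15.1 and 13.9 CPM across the wild type lungs and 17.2, 11.6, 11.5 and 10.2 CPM in the knockout. The ranges overlapped and the log2 difference was -0.45 (SE 0.18). Of 16 monocyte genes tested, 2 rose: Csf1r, the receptor of a macrophage growth factor, and Vcan, a matrix proteoglycan whose call was lost on leaving out knockout replicate 2 or 3 (log2 difference 0.77 and 0.79). Among the 3 that fell were Ms4a4c (log2 difference -0.96) and the lysozyme gene Lyz2 (-0.61). The share of all genes tested that passed in either direction was 30.9%. None of the 16 was under 1 CPM in every library. Their summed level was 6443 to 7242 CPM across the wild type lungs and 4792 to 5352 CPM in the knockout, most of it Lyz2, which other macrophages express as well. The part of monocyte number in the Ly6c2 value was not tested.

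Ly6a, Ly6c1 and Ly6c2 have similar transcript starts, which bears on how 75-base reads are shared out between them. Over the first 200 bases of annotated transcripts, Ly6a matched Ly6c1 at 96.5% identity, Ly6c1 matched Ly6c2 at 96.0%, and Ly6a matched the relative Ly6i at 94.5%. Their separate values are therefore uncertain. Summed over Ly6a, Ly6c1 and Ly6c2, the level was 258 ± 24.6 CPM across the wild type lungs and 262 ± 11.3 CPM in the knockout (SD, n = 4 each), with overlapping ranges of 236 to 292 and 246 to 271 CPM. The lower Ly6a and the higher Ly6c1 thus left their sum where it was within the spread between lungs.

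Upstream sequence is shown for the Ly6c1 and Ly6c2 genes, whose annotated transcript starts are nearly alike. Their wild type means were 106 and 17.4 CPM and their differences pointed in opposite directions. These separate values are uncertain, since reads may be shared between the genes, and Ly6c2 was not called. The RefSeq promoter table (GRCm38.p6) matched 2 of the 7 members, each with 2 starts. The 250 bases before the more upstream start are printed on the gene's strand, 5′ to 3′, from chr15:75048838-75049087 (minus strand) for Ly6c1 and chr15:75111972-75112221 (minus strand) for Ly6c2. Capitals mark matches to searched motifs.
Ly6c1: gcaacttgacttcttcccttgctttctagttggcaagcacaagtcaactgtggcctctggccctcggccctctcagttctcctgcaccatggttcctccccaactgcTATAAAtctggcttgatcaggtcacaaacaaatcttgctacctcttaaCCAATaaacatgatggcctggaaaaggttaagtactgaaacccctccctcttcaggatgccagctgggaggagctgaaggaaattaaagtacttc
Ly6c2: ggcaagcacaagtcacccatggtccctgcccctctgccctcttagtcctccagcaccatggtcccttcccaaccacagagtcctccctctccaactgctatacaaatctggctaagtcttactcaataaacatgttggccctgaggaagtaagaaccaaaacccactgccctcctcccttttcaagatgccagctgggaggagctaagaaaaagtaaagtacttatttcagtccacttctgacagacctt
The best local alignment of these windows covered 227 columns with 164 identical bases (72.2%). For the other pairs of RefSeq starts of these genes the local identity was 70.8% to 83.9%. The Ly6c2 starts do not lie near the start of a transcript used for the 5′ comparison, so the identities are not set against each other. Motifs were searched on both strands and set against 32841 RefSeq windows of the same length. TATAAA, the TATA box, occurred in 12.4% of these and CCAAT in 33.9%. The E-box CACGTG occurred in 6.02% and the GC box GGGCGG in 32.7%. The interferon core (a pair of GAAA blocks with NN between them) occurred in 2.98% and TTCNNNGAA, bound by STAT factors, in 7.02%. In the printed Ly6c1 window TATAAA lay at -143 to -138 and CCAAT at -95 to -91 relative to the start, both on the gene's strand. The printed Ly6c2 window held no match. Neither did the window before the other RefSeq start of each gene, so the matches belong to the printed Ly6c1 start only. A match is a string of letters and not a site shown to be used, and where the CAGE reads of these lungs start is not given in the table.

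Ly6d marks early B lineage cells and stratified epithelium. It was at 40.1, 28.9, 24.5 and 25.5 CPM across the wild type lungs and 38.3, 17.8, 19.8 and 13.4 CPM in the knockout. Replicate 1 was the highest in each genotype and the ranges overlapped (log2 difference -0.49, SE 0.26). Ly6c2 had the same layout. Without replicate 1 of both genotypes, a comparison chosen after the values were seen, the means of Ly6d were 26.3 ± 2.33 and 17.0 ± 3.29 CPM and its log2 difference was -0.63, and Ly6d and Ly6c2 were then both called lower. Leaving out knockout replicate 1 alone also led to a lower call for both, with log2 differences of -0.78 for Ly6d and -0.60 for Ly6c2.

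Genes of B cells, listed after these values were seen, had their highest summed level in the same libraries. The sum over 15 genes was 260 CPM in wild type replicate 1 and 191 to 202 CPM in the other wild type lungs, and 209.6 CPM in knockout replicate 1 and 78.5 to 118 CPM in the other knockout lungs. Of 14 tested, 7 fell and none rose, where 14.3% and 16.6% of all genes tested did, and 7 were not called. Among those that fell were the IgM receptor gene Fcmr, listed as Faim3 (log2 difference -1.79), Fcer2a, the low-affinity IgE receptor (log2 difference -1.28), and Fcrla (-1.27). One defining marker, the complement receptor gene Cr2, was under 1 CPM in every library. The part of B cell content in the Ly6d values was not tested.

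**Figure D2:**
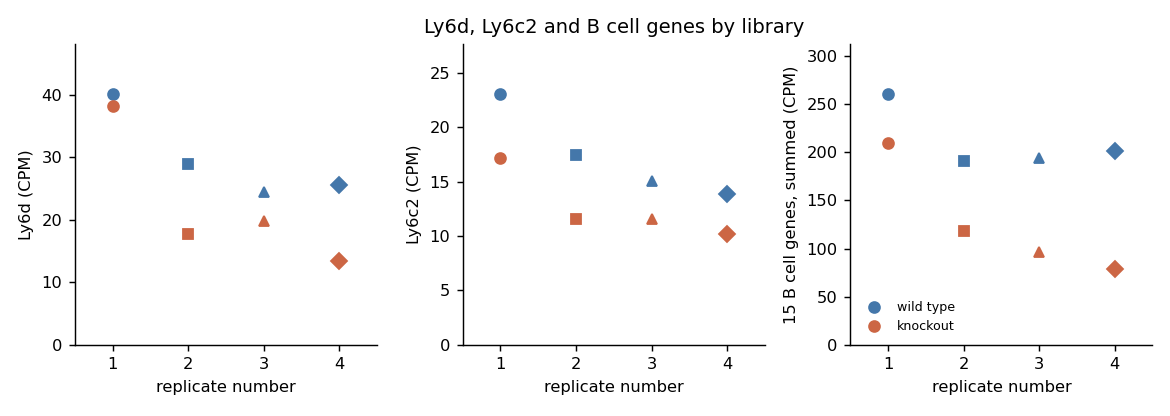
Level in CPM of Ly6d (left), Ly6c2 (middle) and the sum of 15 B cell genes (right) in each library, by replicate number and genotype (blue, wild type; orange, knockout). Replicate 1 is the highest library of its genotype in all 3 panels, at 40.1 and 38.3 CPM for Ly6d.

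The order of the 7 genes by level differed between genotypes. In wild type it ran Ly6e, Ly6a, Ly6c1, Ly6d, Ly6c2, Ly6k and Psca, and no neighbours in that order overlapped over the 4 lungs. In the knockout it ran Ly6e, Ly6c1, Ly6a, Psca, Ly6k, Ly6d and Ly6c2. There the ranges of Psca and Ly6k, of Ly6k and Ly6d, and of Ly6d and Ly6c2 overlapped, so their order was not resolved. Ly6a and Ly6c1 changed places by narrow gaps. In wild type the lowest Ly6a was 127.34 and the highest Ly6c1 126.65 CPM. In the knockout the lowest Ly6c1 was 123.14 and the highest Ly6a 120.64 CPM. The separate values of Ly6a and Ly6c1 are uncertain because their transcript starts are similar. By mean level among all 15728 genes, Psca went from percentile 1.43 to 78.7 and Ly6k from 10.9 to 75.2.

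The members lie in a cluster of Ly6 genes on chromosome 15, and the position of the neighbours was used to see how far the rise of Psca and Ly6k was shared. Because the reads were placed on another build, only the order of genes is used. Between Psca and Ly6k the annotation has 9 genes, of which 7 were listed and tested. One of the 7, Them6, the gene next to Psca, rose from 12.2 ± 0.51 to 20.4 ± 3.26 CPM (adjusted p = 0.000976), and Slurp1 and Slurp2 fell. Slurp2 passed the filter through its wild type libraries alone, so it was tested only because it is high there. No gene between them came near the size of their rise. Over 15 listed genes on each side of Psca, those between Psca and Ly6k included, 24 were no members and 22 of these were tested, of which 4 rose and 3 fell, where 30.9% of all genes passed in either direction. Beside Them6, Slurp1 and Slurp2 these were Khdrbs3, an RNA-binding protein gene (from 19.0 ± 1.35 to 12.1 ± 0.97 CPM), and Chrac1, Dennd3 and Zfp41, which rose.

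Ly6k overlaps the antisense gene Gm17189, which covers its first 200 bases on the other strand. The sources used here do not give whether strand was used in counting, so their reads may be mixed. Gm17189 was at 1.5, 1.29, 1.27 and 1.22 CPM across the wild type lungs and 0.53, 1.08, 0.69 and 1.08 CPM in the knockout, so it did not go up where Ly6k did.

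**Figure D3:**
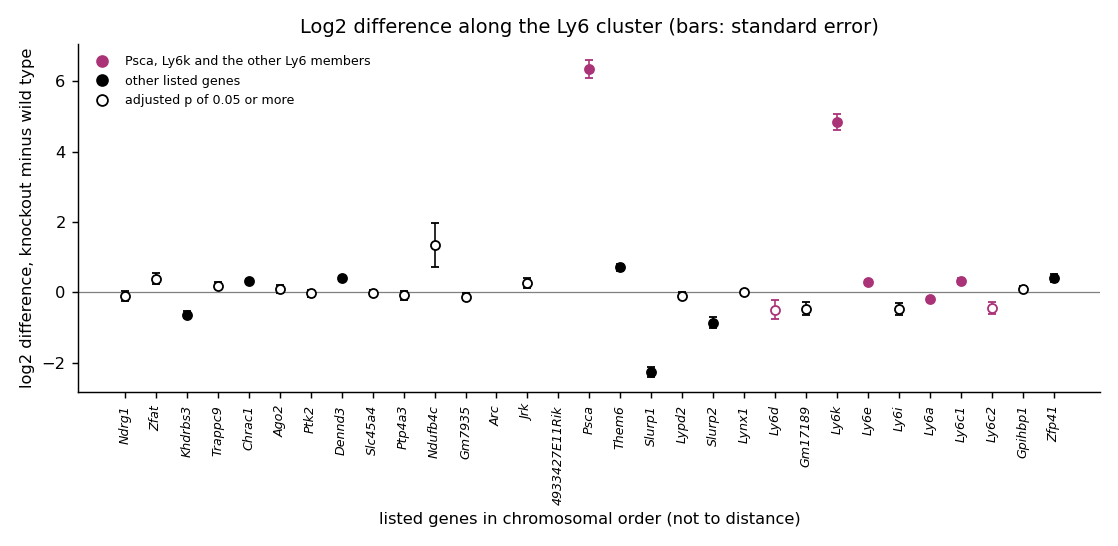
Log2 difference, knockout minus wild type, with its SE for the listed genes around Psca in chromosomal order (x axis, not to distance), with the 7 genes in purple, others in black and open symbols for an adjusted p of 0.05 or more; genes without a symbol were below the filter. Psca at 6.34 and Ly6k at 4.84 stand apart from the 7 tested genes between them, which lie between -2.25 and 0.71.

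Of the cluster's other Ly6 genes, 6 of 21 listed had a row, and 2 fell and none rose. The shares over all genes tested were 14.3% and 16.6%. Slurp1, a secreted Ly6 protein of epithelia that modulates the α7 nicotinic receptor, was at 77.2, 95.6, 79.2 and 92.4 CPM across the wild type lungs and 17.2, 21.7, 19.5 and 13.1 CPM in the knockout. Every knockout value lay far below every wild type value, and the gene fell 4.82-fold (log2 difference -2.25, SE 0.14, adjusted p = 9.91e-07). It overlaps Them6, on the other strand, which rose, and since the use of strand in counting is not known here, the reads of this pair may be mixed. Slurp2, a related secreted protein listed as 2300005B03Rik, was at 1.32, 1.29, 1.27 and 1.22 CPM across the wild type lungs and 0.60, 0.47, 0.48 and 0.38 CPM in the knockout (adjusted p = 0.00217). It passed the filter through its wild type libraries alone, so it was tested only because it is high there. Lypd2 stood at 208 ± 21.5 and 196 ± 31.1 CPM. Lynx1, a membrane-bound modulator of nicotinic receptors, stood at 16.8 ± 1.05 and 16.8 ± 1.25 CPM. Gpihbp1, which carries lipoprotein lipase across capillary endothelium, stood at 301 ± 25.8 and 323 ± 23.2 CPM. Ly6i stood at 2.74 ± 0.35 and 1.86 ± 0.51 CPM (adjusted p = 0.0583), and passed the threshold without knockout replicate 1 (log2 difference -0.59), under TMM and median-ratio scaling (-0.50 and -0.49) and in the edgeR test (-0.57). The median log2 difference of the 6 was -0.28, against 0.01 over all genes tested.

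Of 23 relatives with the same fold or a related one elsewhere in the genome, 11 had a row and 9 were tested. Of these, 3 rose and none fell, where 16.6% and 14.3% of all genes tested did. Cd59a, the main inhibitor of the complement membrane attack complex in mice, was at 16.2, 10.8, 11.8 and 12.4 CPM across the wild type lungs and 34.0, 40.6, 41.7 and 43.0 CPM in the knockout. It rose 3.11-fold without overlap (log2 difference 1.61, SE 0.12, adjusted p = 5.92e-06). Its copy Cd59b rose from 4.66 ± 0.55 to 7.16 ± 1.45 CPM (adjusted p = 0.0158). The 5′ ends of these genes matched at up to 94.4% over 144 bases, and their sum went from 17.5 ± 1.92 to 47.0 ± 5.10 CPM. Lypd6, known as a modulator of nicotinic receptors and of Wnt signalling, was at 0.12, 0.43, 0.40 and 0.32 CPM across the wild type lungs and 1.26, 1.35, 1.52 and 1.15 CPM in the knockout (adjusted p = 0.001). It passed the filter on low values through its knockout libraries alone, so it was tested only because it is high there. Plaur, the urokinase receptor, stood at 51.4 ± 3.41 and 60.7 ± 9.70 CPM (adjusted p = 0.117), and passed the threshold without knockout replicate 2 (log2 difference 0.31). Ly6g6c stood at 2.10 ± 0.51 and 1.40 ± 0.55 CPM and passed it without knockout replicate 3 (log2 difference -0.65). Lypd6b, Ly6g6d, Ly6g6e and Bambi had differences between -0.27 and 0.20. The median log2 difference of the 9 was 0.20.

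Nicotinic receptor subunits were listed because Slurp1, Lynx1 and Psca are known to act on these receptors, and 2 of 16 had a row. Chrna7, the α7 subunit, was at 0.72, 0.86, 2.19 and 1.67 CPM across the wild type lungs and 2.32, 3.31, 2.62 and 2.92 CPM in the knockout. It rose without overlap (log2 difference 0.89, SE 0.24, adjusted p = 0.0168), and the call ended without wild type replicate 2 (log2 difference 0.77). Chrnb1, the β subunit of the muscle-type receptor, was at 13.8, 13.7, 15.1 and 15.1 CPM across the wild type lungs and 23.1, 21.2, 25.4 and 23.3 CPM in the knockout, and rose 1.61-fold (adjusted p = 0.000189).

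**Figure D4:**
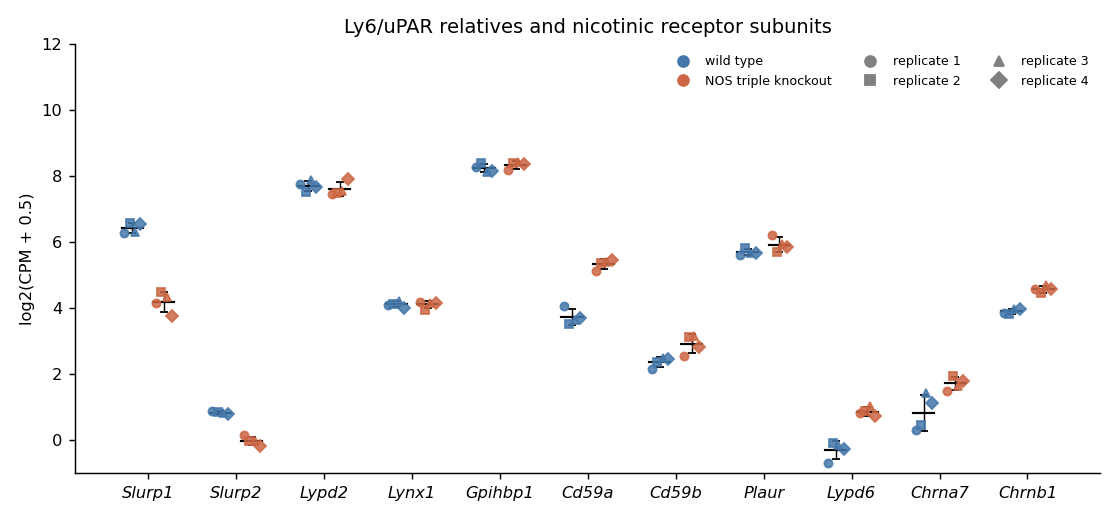
Level, as log2(CPM + 0.5), of 9 Ly6/uPAR relatives and 2 nicotinic receptor subunits in each library (blue, wild type; orange, knockout; marker shape, replicate number), with the mean and SD over 4 animals in black. Slurp1 and Slurp2 are lower and Cd59a, Cd59b, Lypd6, Chrna7 and Chrnb1 higher in all 4 knockout lungs, while Lypd2, Lynx1, Gpihbp1 and Plaur overlap.

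Of 30 tested genes that build and remodel the GPI anchor, 5 rose and 3 fell, with a median log2 difference of 0.09, where 30.9% of all genes tested passed in either direction. Dpm3, a subunit of the enzyme that makes the mannose donor, rose from 364 ± 27.2 to 511 ± 46.9 CPM (adjusted p = 0.00118), and Pgap2, an anchor remodelling gene, rose by 0.31 on the log2 scale. Tmem8, a gene of GPI processing, had a log2 difference of -0.57 and Pigs, of the transamidase that attaches the anchor, -0.27. Tmem8 missed the threshold on leaving out replicate 1 or 2 of wild type or replicate 4 of the knockout (log2 difference -0.53 to -0.40). Pigs missed it on 6 of 8 omissions, all but those of wild type 4 and knockout 3 (log2 difference -0.28 to -0.22).

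Interferon response genes were listed because Ly6a, Ly6c and Ly6e belong to that response. Of 28 tested, 15 fell and 3 (Ifitm3, Parp14 and Ddx58) rose, where 14.3% and 16.6% of all genes tested did. The median log2 difference was -0.36. Ifit3 fell from 47.8 ± 3.72 to 21.6 ± 3.10 CPM and Oas3 from 3.15 ± 1.09 to 1.33 ± 0.36 CPM, both antiviral genes. Ifitm3, a membrane protein that blocks virus entry, rose from 1051 ± 27.2 to 1224 ± 71.3 CPM. Parp14 and the RNA sensor gene Ddx58 had differences of 0.27 and 0.25. Parp14 missed the threshold on leaving out replicate 2 or 3 of either genotype (0.22 to 0.26). Ddx58 missed it on leaving out replicate 1, 2 or 4 of wild type or replicate 3 or 4 of the knockout (0.20 to 0.26), and under TMM and median-ratio scaling and in the edgeR and DESeq2 tests (0.23). The summed level, 1853 to 1946 CPM across the wild type lungs and 1838 to 1982 CPM in the knockout, was mostly that of Ifitm3. Among the listed genes Mx1 was under 1 CPM in every library. Ly6e lay above and Ly6a below its wild type range, so the members of this group did not share a direction.

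General capillary endothelial genes, listed beside Ly6a and Ly6c1, rose for 7 and fell for 2 of 17 tested, with a median log2 difference of 0.10. Over all genes tested, 16.6% rose and 14.3% fell. Aplnr, the apelin receptor, rose from 51.9 ± 4.86 to 95.9 ± 11.1 CPM and Glp1r, the GLP-1 receptor, from 46.4 ± 3.48 to 87.9 ± 12.9 CPM. Hpgd, the enzyme that inactivates prostaglandins, fell from 802 ± 30.4 to 636 ± 43.9 CPM, and Adgrl3, listed as Lphn3, had a difference of -0.43, whose call ended without wild type replicate 2 (-0.37). None of the 17 was under 1 CPM everywhere, and the summed level was 3686 to 3943 CPM across the wild type lungs and 3702 to 4286 CPM in the knockout.

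Psca and Ly6k are known from epithelia and germ cells, so markers of those tissues were read beside them. Of 23 stratified squamous epithelial genes 8 had a row and 5 were tested. Dmkn, dermokine, was at 11.5, 12.9, 9.06 and 13.53 CPM across the wild type lungs and 169, 199, 282 and 263 CPM in the knockout, and Perp rose by 0.31 on the log2 scale, while Sfn fell by 1.12. Krt15 and Sbsn had differences of 0.08 and 0.03, and Krt13 and Ivl were under 1 CPM in every library. Sprr1a, below the filter, had means of 0.71 and 1.31 CPM with overlapping ranges. The summed level was 59.9 to 68.5 CPM across the wild type lungs and 222 to 342 CPM in the knockout, and Dmkn made up most of the excess. Of 15 stomach genes 6 had a row, and of 5 tested 3 fell and none rose, against 14.3% and 16.6% of all genes tested. The trefoil factor gene Tff2 fell from 71.1 ± 10.6 to 15.3 ± 14.1 CPM, Gkn3 (tested through its wild type libraries) from 2.67 ± 0.47 to 0.73 ± 0.30 CPM and Sox2 from 12.3 ± 0.70 to 8.82 ± 0.74 CPM. The summed level of the 6 was 81.8 to 102 CPM across the wild type lungs and 17.6 to 48.6 CPM in the knockout. Airway secretory genes, which include Tff2, rose for 0 and fell for 9 of 13 tested, against 16.6% and 14.3% of all genes tested. Among those that fell were Reg3g (log2 difference -2.29), Agr2 (-2.06) and Scgb3a1 (-1.36). The summed levels were 95456 to 116101 CPM across the wild type lungs and 87298 to 117924 CPM in the knockout. They were mostly those of Scgb1a1, which stood at 83216 ± 9650 and 89790 ± 11500 CPM and was not called.

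Of 15 germ cell genes 1 had a row. Tex14, of the bridges between germ cells, was at 2.74 ± 0.24 CPM across the wild type lungs and 5.39 ± 2.10 CPM in the knockout with overlapping ranges, and its call (adjusted p = 0.0255) was lost on leaving out replicate 1, 2 or 4 of wild type or replicate 2 or 3 of the knockout (log2 difference 0.60 to 0.79). The part of any such cell type in the levels of Psca and Ly6k was not tested.

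Likeness to Psca and Ly6k was measured over the 8 libraries as the root mean square difference between log2 profiles centred on their own mean, where 0 is the same pattern. Only tested genes were ranked, and those whose names only number a gene model or clone were left out. Among the rest, the genes most like Psca were the pseudogenes Atp6v0c-ps2 (0.46) and Rps15a-ps6 (0.77), Ly6k (0.94), Gpx2-ps1 (1.0) and Dmkn (1.16). Those most like Ly6k were Gpx2-ps1 (0.41), Dmkn (0.45), Rps15a-ps7 (0.58), Stk32c (0.83) and Rprl3, listed as RNaseP_nuc (0.90). Rps15a-ps7 was listed at 0 in all wild type libraries and stood at 7.75 ± 2.53 CPM in the knockout. Stk32c, a kinase gene, went from 0.84 ± 0.24 to 13.3 ± 1.46 CPM. Few genes were raised this much, so the nearest genes are those with a similar size of rise. Several are processed pseudogenes whose reads can be shared with their parent genes. Psca was not among the 5 genes nearest to Ly6k.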

How the data were processed

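CAGE libraries of lung RNA from 4 wild type and 4 knockout mice were sequenced together as single-end reads, per the labels' protocols. Build mm9, HISAT2 2.0.5, BWA 0.7.12-r1039 and edgeR are listed, without role or order, per the submitters' processing notes. How reads were assigned to genes is not stated there. The values deposited by the authors are CPM (library-scaled counts) for 15728 genes. Whole reads were recovered from the CPM steps, with 100% of values whole within 0.1 reads.

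A gene was tested if 4 or more libraries reached 1 CPM (14065 genes). Genotype was the only term of a limma 3.58.1 fit (R 4.3.3, variance trend) to log2(CPM + 0.5), and genes were called at a two-sided Benjamini-Hochberg adjusted p under 0.05. Each adjusted p in the text is from this fit. The fit was checked on simulated data. Alternatives used edgeR 4.0.16 and DESeq2 1.42.0 on recovered reads, other scalings, filters and pseudocounts, the replicate number as a block, and omission of each library. Genes kept in the main fit were kept when a library was left out.

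The members and gene lists were chosen with earlier results of these data known. Named were the members, their family relatives, called genes of each other list with the largest differences (up to 4), overlapping genes, called neighbours with the largest differences and the 5 genes most like Psca and Ly6k. Lyz2, Scgb1a1, Krt15, Krt13, Sprr1a, Sbsn, Ivl, Mx1, Ifitm3, Cr2, Chrac1, Dennd3, Zfp41 and Nos3 were named outside that rule. Some genes that the rule names are not reported here. Names, order and overlaps came from GENCODE M21 (GRCm38), which held 15066 of the identifiers, 5′ ends were compared with blastn 2.17.0, and promoter windows came from RefSeq. Reads carry no molecular identifiers, so intervals and floors cover counting error only. Nothing in the labels says that the samples are separate animals beyond their titles, and p-values measure the spread between these samples. No libraries looked like repeats of each other (chi-square per gene 11.3 to 19.1 within a genotype).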

Additional observations from a re-analysis of the deposited data

Results flagged for a closer look

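Ly6k was at 66.7 CPM in knockout replicate 3 against 31.1, 36.6 and 36.8 CPM. The gap to the nearest lung was 0.84 of the whole range of the group, past Dixon's 95% critical value for 4 samples. The same was asked of all 7 genes in both genotypes, 14 groups, and chance marks about 5% of groups. Psca was at 62.2 CPM in that lung, inside the range of the other knockout lungs. Without this library the log2 difference of Ly6k was 4.61 in place of 4.84.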

How the results depend on the processing

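Over 19 alternatives, 2341 genes called higher became 1741 to 2387 and 2010 called lower became 1552 to 2379, and no alternative moved either count by more than 1.5 times. Leaving out 1 library gave 1741 to 2387 higher and 1552 to 2100 lower. Of 67 genes followed, 49 kept their call and direction throughout, and no direction reversed where either value was called. The log2 difference of Psca ranged from 5.48 with a pseudocount of 1 to 8.89 with DESeq2, since its wild type level is at the floor, and that of Ly6k from 4.42 to 5.43. Among the 7 genes, 2 were called higher with quantile normalization in place of 4, since Ly6e and Ly6c1 missed the threshold. DESeq2 also called Ly6c2 lower. Same-numbered samples did not deviate together (correlations -0.0029 to 0.0646 across genes), and not every sample correlated best with its own number. With the replicate number as a block, 2384 genes were higher and 2014 lower, and of the 7 genes 3 were higher and 2 lower: Ly6d (-0.49) and Ly6c2 (-0.45) passed the threshold and Ly6a and Ly6c1 missed it, as did Parp14 of the other genes followed. Levels near 3 reads, such as Psca in wild type, are limited by depth.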

Other observations

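Among the neighbours of Psca, Ndufb4c (listed as Gm3244) was at 10.9, 11.0, 11.1 and 12.1 CPM in wild type and 16.8, 17.1, 14.6 and 172 CPM in the knockout. Knockout replicate 4 alone held the high value, and the difference did not pass the test (adjusted p = 0.123). Lypd1, a Ly6 relative below the filter, had no read in any wild type library or in knockout replicate 1 and was at 0.14, 0.14 and 0.15 CPM in the other knockout libraries, which is below 3 reads.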
